A study of Mus musculus with 6 samples.

Results

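The genes described here encode the nuclear subunits of the last 3 machines of mitochondrial respiration: complex III, complex IV and ATP synthase, with the carrier cytochrome c. They were taken by symbol (Uqcr genes and Cyc1 for complex III, Cox4 to Cox8 for complex IV, Atp5 for ATP synthase, and Cycs), which gave 45 of the 24984 listed genes. Transcripts were counted by bulk RNA sequencing of the inguinal depot of white fat, which lies under the skin, from wild-type mice on a high-fat diet (n = 3) and Mpst knockout mice on the same diet (n = 3). MPST is a sulfurtransferase, and the series title places it in mitochondrial protein import and bioenergetics. The labels give genotype, diet and tissue, but not age, sex or how the allele was made, and they do not say that replicates are separate animals, so each p-value speaks for the spread of these 6 libraries only, part or all of which may be technical. No chow-fed group was analysed here, so all values are from animals on a high-fat diet.

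Complex III passes electrons from ubiquinol to cytochrome c, a small soluble protein, through a Rieske iron-sulfur protein (Uqcrfs1) and cytochrome c1 (Cyc1). Complex IV takes them from cytochrome c and reduces oxygen. ATP synthase uses the proton gradient that these complexes build, with a catalytic F1 head, a rotating ring of c subunits and a peripheral stalk that holds the head still. The subunits listed here are made in the cytosol and imported, while the catalytic core of complex IV, cytochrome b and some membrane subunits of ATP synthase come from mitochondrial DNA, whose transcripts were not analysed here. Complex IV exchanges some subunits by tissue: Cox7a1, Cox8b and Cox6a2 are the forms of heart and skeletal muscle, and Cox7a1 and Cox8b are also known from brown fat, while Cox7a2, Cox8a and Cox6a1 are used widely.

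The labels were checked on the targeted gene. Mpst was at 83.2, 84.7 and 75.4 CPM (reads counted in the gene, scaled to equal library size) in the wild type and at 0.358, 0.440 and 0.382 CPM in the knockout, values given here and below in the order of replicates 1, 2 and 3. This was a log2 fold change of −7.63 ± 0.17 (SE; edgeR adjusted p = 1.33e-07). Libraries held 8054560 to 22458630 counts in genes, the fewest in knockout replicate 1. The fat cell genes Adipoq (4257 to 5770 CPM in wild type, 3535 to 4245 in knockout) and Plin1 were abundant in every library, and Ucp1, which defines brown and beige fat cells, was at or below 1.28 CPM in all 6. Skeletal muscle transcripts differed between libraries within each genotype: the summed level of 26 muscle genes was 228, 1488 and 372 CPM in wild type and 193, 187 and 3382 CPM in knockout, so that wild-type replicate 2 and knockout replicate 3 stood apart.

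Of the 45 genes, 43 had enough counts to be tested. Of these 43, 40 had a log2 fold change below 0, with a median of −0.50, against a median of 0.01 over all 14065 genes tested. By edgeR, 5 members, 11.6%, passed an adjusted p of 0.05 as lower and 0 as higher, while 7.41% of all genes tested passed, 2.65% as lower and 4.76% as higher. Of the 936 tested genes with an annotated transcript under 1000 bases, 766 had a log2 fold change below 0 and 10.5% passed as lower. The 5 members were Cox8b, Cox6c and Cox6a1 of complex IV, Uqcr11 of complex III and Atp5j2 of ATP synthase. In 28 of the 43 (65.1%), every knockout library lay below every wild-type library. This was the case for 15.5% of all genes tested and for 36.6% of those with an annotated transcript under 1000 bases. At an unadjusted p under 0.05, 30 members were lower and 0 higher (DESeq2 also called 0 higher), with 12.7% of all genes lower at that threshold.

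Summed over all 45, member transcripts made up 1.54%, 1.62% and 1.596% of the counts in wild type and 1.28%, 1.42% and 1.18% in the knockout. The summed level was 16651 ± 791 CPM in wild type and 12404 ± 1605 CPM in the knockout (SD, n = 3), that is 74.5% of wild type. By the same measure, all genes tested stood at 90.9% of wild type. Tested genes with an annotated transcript under 1000 bases stood at 71.2%. For the members, knockout replicate 2 was the highest and knockout replicate 3 the lowest of the knockout libraries, and the groups did not overlap. Many subunit genes have near-identical processed pseudogenes, and the sources used here do not say how reads that match several places were counted, so the levels of single members are uncertain.

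**Figure D1:**
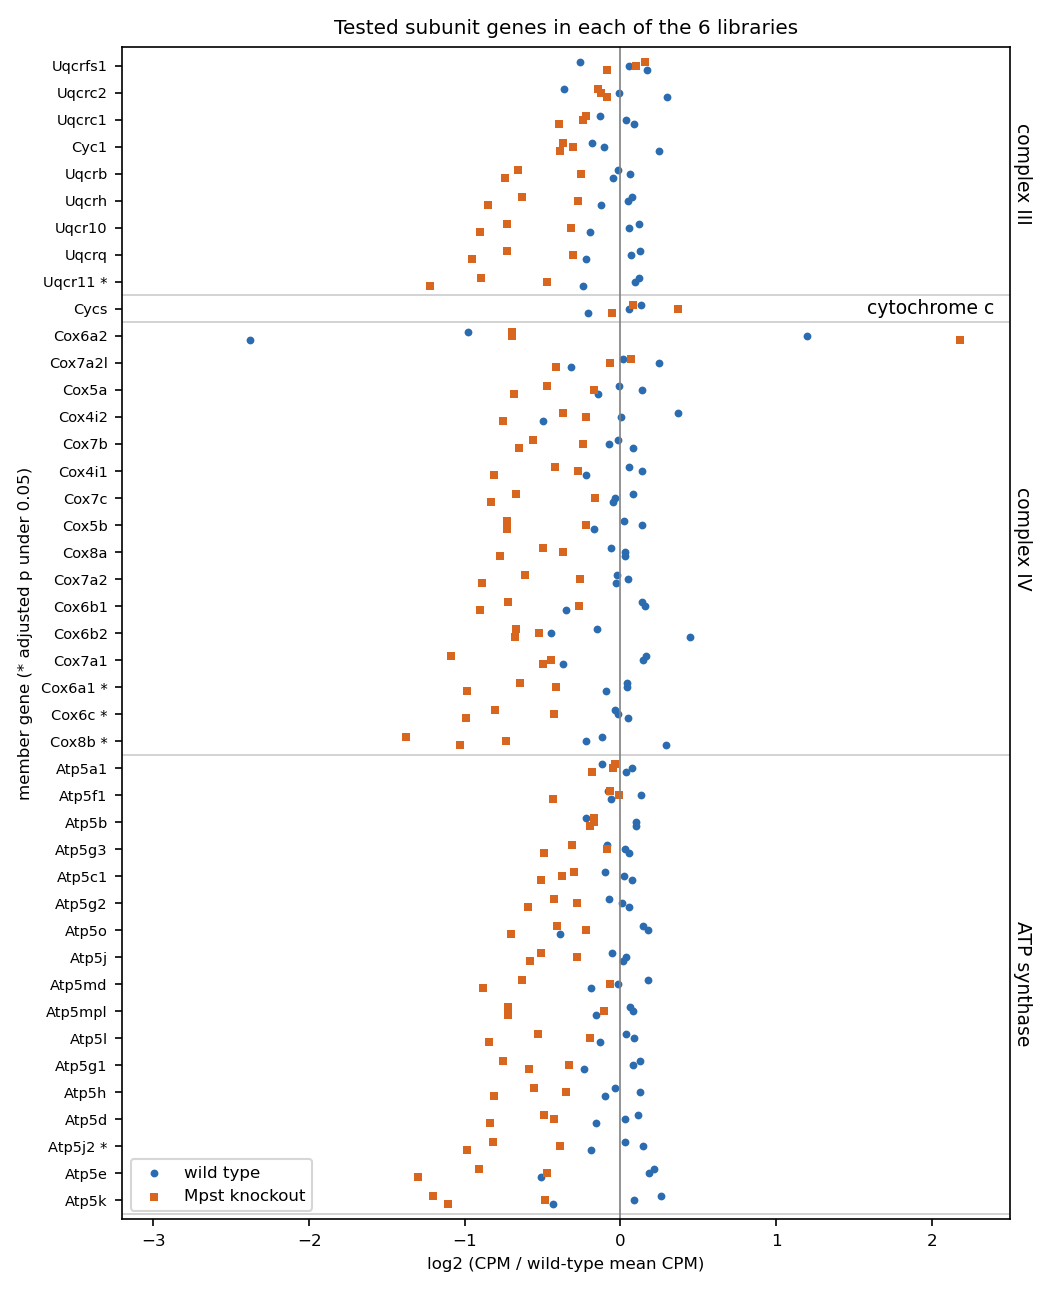
Level of each of the 43 tested genes in each library, as log2 of its CPM over the wild-type mean, with wild-type libraries as circles and knockout libraries as squares; an asterisk marks an adjusted p under 0.05. Most squares lie to the left of all circles, while Uqcrfs1, Uqcrc2, Cycs, Cox7a2l, Atp5a1 and Atp5f1 overlap near 0 and Cox6a2 spreads widely in both genotypes.

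How many members passed depended on single libraries. Without wild-type replicate 3 the test called 24 members lower (8.22% of all genes), and without wild-type replicate 1 it called Cox8b alone (1.82% of all genes). Without wild-type replicate 2 it called 0 members, and likewise without knockout replicate 1, 2 or 3, where 0.00695%, 0.0348%, 0.00706% and 0.0142% of all genes were lower. The median log2 fold change of the members stayed between −0.67 and −0.39 in these fits. DESeq2 called 23 members lower, all 5 of the above among them, with 877 of 19060 genes (4.60%) lower. That total includes genes with too few counts for the edgeR test of 14065 genes.

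In complex III, 1 of 9 genes passed as lower, all but Uqcrfs1 had a log2 fold change below 0, and the median was −0.53. The 5 genes of the small supernumerary subunits, which surround the catalytic core, had a median of −0.63, and in each of them the libraries of the 2 genotypes did not overlap. The core proteins had a median of −0.20. With trends on transcript length and GC content removed, the 2 medians were −0.22 and −0.21, and the difference between the groups was not tested.

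Uqcr11, one of these small subunits (ENSMUSG00000020163.12, chr10:80402997-80406830, minus strand, GRCm38), was at 389.5, 382.8 and 303.5 CPM in wild type and at 192.4, 258.1 and 153.6 CPM in the knockout. All knockout libraries were below the lowest wild-type library, and the fold change was 1.78-fold lower (log2 −0.83 ± 0.20 SE, adjusted p = 0.0425). Uqcr10, which had the next smallest p in the complex, was at 332.9, 318.6 and 267.2 CPM in wild type and 184.7, 245.3 and 164.0 CPM in the knockout. These ranges did not overlap either, and Uqcr10 missed the threshold (log2 −0.63 ± 0.17, adjusted p = 0.0605). Uqcrh, the hinge protein that helps cytochrome c bind, was the member of the complex with the highest level per kilobase of transcript, at 825.9 CPM per kilobase in wild type and 558.7 in the knockout. Its log2 fold change was −0.56 (adjusted p = 0.0718), and those of Uqcrq and Uqcrb were −0.64 and −0.53 (adjusted p = 0.0699 and 0.0626).

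Uqcrfs1, the Rieske protein, was at 192.6, 240.2 and 259.5 CPM in wild type and 257.9, 246.8 and 217.5 CPM in the knockout, with overlapping ranges (log2 0.06 ± 0.15, adjusted p = 0.822). Cyc1 was at 303.8 to 409.6 CPM in wild type and 262.6 to 278.7 CPM in the knockout (log2 −0.35 ± 0.14, adjusted p = 0.153). The core proteins Uqcrc1 and Uqcrc2, which anchor the matrix side, had log2 fold changes of −0.28 and −0.12 (adjusted p = 0.188 and 0.684). Cycs, the mobile carrier itself, was at 104.7, 99.6 and 82.8 CPM in wild type and at 101.1, 123.7 and 92.2 CPM in the knockout. These libraries overlapped (log2 0.14 ± 0.15, adjusted p = 0.570), and the estimate was −0.19 once the same trends were removed.

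The 18 genes of complex IV held 3 of the 5 called members: Cox8b, Cox6c and Cox6a1. Of the 16 tested, 15 had a log2 fold change below 0, with a median of −0.54. The 5 subunits that have a single widely used gene (Cox5a, Cox5b, Cox6c, Cox7b and Cox7c) had a median of −0.53 and did not overlap between genotypes in any of the 5. The 5 widely expressed isoforms (Cox4i1, Cox6a1, Cox6b1, Cox7a2 and Cox8a) had a median of −0.56, and all but Cox6b1 were free of overlap.

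Cox6c (ENSMUSG00000014313.15, chr15:35925886-35938246, minus strand, GRCm38), a small membrane subunit, was at 457.2, 464.7 and 486.0 CPM in wild type and 268.9, 349.3 and 236.3 CPM in the knockout. Its wild-type libraries lay close together (SD 14.9 CPM) and all above the knockout (log2 −0.72 ± 0.16, adjusted p = 0.0359). Cox4i1, the largest nuclear subunit and the one with the most CPM among complex IV genes, was at 1193, 1266 and 984.8 CPM in wild type and 859.2, 948.9 and 653.7 CPM in the knockout. It did not overlap and did not pass (log2 −0.48 ± 0.18, adjusted p = 0.124). Cox5a and Cox5b, which sit on the matrix side, had log2 fold changes of −0.42 and −0.54 (adjusted p = 0.126 and 0.0841), and Cox7b and Cox7c of −0.47 and −0.53 (adjusted p = 0.0727 and 0.0937). Cox6b1, which faces the intermembrane space, was at −0.60 (adjusted p = 0.102).

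Cox7a2l, which shares its family with Cox7a2 and links complex III to complex IV in supercomplexes, stood near 0: 133.7, 157.3 and 106.3 CPM in wild type and 138.7, 126.5 and 99.2 CPM in the knockout (log2 −0.13 ± 0.18, adjusted p = 0.687). Its groups overlapped. Ndufa4, long counted with complex I and found to be a subunit of complex IV, was on the list of assembly factors and was at 600.0, 626.5 and 586.1 CPM in wild type and 386.1, 485.0 and 327.9 CPM in the knockout (log2 −0.60 ± 0.16, adjusted p = 0.0587).

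The exchange of tissue isoforms was compared in 3 pairs. To show what these genes have upstream, 250 bases before the RefSeq start (GRCm38.p6, the assembly behind mm10) are printed 5′ to 3′ on the gene's strand for both genes of the Cox8 and Cox7a pairs and for Cox6a1. Capitals mark matches, on either strand, to motifs of factors known for respiratory genes (NRF1; ETS factors such as GABP, CCGGAAG; ERR, AAGGTCA; YY1, ATGGCGG), to the CCAAT box, to TATAAA and to the E-box of myogenic factors, CAGCTG. The windows are chr7:140900447-140900696 (minus strand) for Cox8b, chr19:7217617-7217866 (minus) for Cox8a, chr7:30183921-30184170 (plus) for Cox7a1, chr9:79759854-79760103 (minus) for Cox7a2 and chr5:115348959-115349208 (minus) for Cox6a1.
Cox8b: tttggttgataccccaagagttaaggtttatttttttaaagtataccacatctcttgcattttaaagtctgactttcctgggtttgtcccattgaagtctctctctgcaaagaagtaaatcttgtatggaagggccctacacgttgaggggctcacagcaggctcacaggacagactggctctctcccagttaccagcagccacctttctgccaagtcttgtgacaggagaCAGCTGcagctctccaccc
Cox8a: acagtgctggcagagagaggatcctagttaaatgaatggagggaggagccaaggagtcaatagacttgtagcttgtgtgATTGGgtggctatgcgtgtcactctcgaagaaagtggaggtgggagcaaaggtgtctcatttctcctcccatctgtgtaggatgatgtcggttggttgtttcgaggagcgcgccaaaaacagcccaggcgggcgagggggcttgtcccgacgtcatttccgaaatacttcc
Cox7a1: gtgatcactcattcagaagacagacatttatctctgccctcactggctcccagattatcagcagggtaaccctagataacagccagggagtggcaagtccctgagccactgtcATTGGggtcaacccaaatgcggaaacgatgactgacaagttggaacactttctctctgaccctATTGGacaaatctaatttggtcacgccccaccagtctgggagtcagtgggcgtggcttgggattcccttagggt
Cox7a2: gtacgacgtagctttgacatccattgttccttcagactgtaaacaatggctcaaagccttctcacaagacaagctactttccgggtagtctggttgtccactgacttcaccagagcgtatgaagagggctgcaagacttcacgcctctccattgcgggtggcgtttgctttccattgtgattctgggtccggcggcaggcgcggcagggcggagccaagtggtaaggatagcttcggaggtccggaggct
Cox6a1: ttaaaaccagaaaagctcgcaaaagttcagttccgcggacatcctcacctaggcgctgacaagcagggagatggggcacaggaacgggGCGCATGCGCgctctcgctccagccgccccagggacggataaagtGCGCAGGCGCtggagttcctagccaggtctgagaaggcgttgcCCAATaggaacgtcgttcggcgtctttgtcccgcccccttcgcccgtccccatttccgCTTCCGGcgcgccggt

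Cox8b held an E-box between positions −19 and −14 from its start and none of the other capitalised motifs. Cox8a held 1 CCAAT box and Cox7a1 held 2, while Cox7a2 held none of these motifs. Cox6a1 held 2 NRF1 matches, 1 ETS match and 1 CCAAT box. A match is a description of letters and not evidence of binding.

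Cox8b (ENSMUSG00000025488.9, chr7:140898945-140900446, minus strand, GRCm38), the Cox8 form of muscle and brown fat, was at 86.4, 80.4 and 114.9 CPM in wild type and 36.1, 56.5 and 46.0 CPM in the knockout. Every knockout library was below every wild-type library, and the difference was 2.02-fold (log2 −1.02 ± 0.19, adjusted p = 0.0244), the most negative log2 fold change among the members tested. Cox8a (ENSMUSG00000035885.5, chr19:7215153-7217616, minus strand), its widely used counterpart, was at 841.8, 898.7 and 897.9 CPM in wild type and at 623.9, 679.8 and 513.7 CPM in the knockout. Its libraries did not overlap either (log2 −0.54 ± 0.15, adjusted p = 0.0600), and it had the highest level per kilobase of all members in wild type, 1599 CPM per kilobase against 260.7 for Cox8b. As a share of both genes' counts, Cox8b made up 9.30%, 8.21% and 11.3% in wild type and 5.47%, 7.67% and 8.22% in the knockout. The log2 ratio of Cox8b to Cox8a was lower by −0.48 in the knockout, with 1 knockout library inside the wild-type range, and the exact two-sided permutation test over 6 libraries gave p = 0.2 (0.6 adjusted over the 3 pairs), where 0.1 is the smallest p this design allows.

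Cox7a1 (ENSMUSG00000074218.3, chr7:30184144-30186078, plus strand) was at 19.6, 19.3 and 13.5 CPM in wild type and at 8.23, 12.8 and 12.4 CPM in the knockout. The lowest wild-type library stood just above the highest knockout library (log2 −0.63 ± 0.22, adjusted p = 0.105). Cox7a2 (ENSMUSG00000032330.7, chr9:79755361-79759878, minus strand) was at 387.7, 408.5 and 386.5 CPM in wild type and at 257.3, 329.8 and 212.4 CPM in the knockout, again without overlap (log2 −0.56 ± 0.17, adjusted p = 0.0732). Cox7a1 accounted for 4.80%, 4.52% and 3.38% of the pair in wild type and 3.10%, 3.74% and 5.51% in the knockout. The ratio differed by −0.07 on the log2 scale (exact permutation p = 0.9, 0.9 adjusted), with 1 knockout library below, 1 within and 1 above the wild-type range. The library above was knockout replicate 3, the highest in muscle transcripts. Wild-type replicate 2, the next highest in these, lay between the other wild-type libraries.

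Cox6a2 (ENSMUSG00000030785.8, chr7:128205435-128206387, minus strand), the muscle form, was at 0.981, 4.44 and 0.371 CPM in wild type and at 1.19, 1.19 and 8.74 CPM in the knockout. Its highest libraries, wild-type replicate 2 and knockout replicate 3, were those with the most muscle transcripts, such as Ckm at 68.1 and 119.6 CPM against 0.490 to 5.71 CPM in the other 4. Its log2 fold change of 1.03 had an SE of 1.06 (adjusted p = 0.575) and was −0.67 without knockout replicate 3. Cox6a1 (ENSMUSG00000041697.8, chr5:115345642-115348981, minus strand) was at 868.9, 868.6 and 791.3 CPM in wild type and at 539.6, 631.8 and 426.4 CPM in the knockout. Those groups did not overlap (log2 −0.66 ± 0.17, adjusted p = 0.0474). Cox6a2 made up 0.113%, 0.508% and 0.0469% of the pair in wild type and 0.220%, 0.188% and 2.01% in the knockout (difference in log2 ratio 1.65, exact permutation p = 0.4, 0.6 adjusted).

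**Figure D2:**
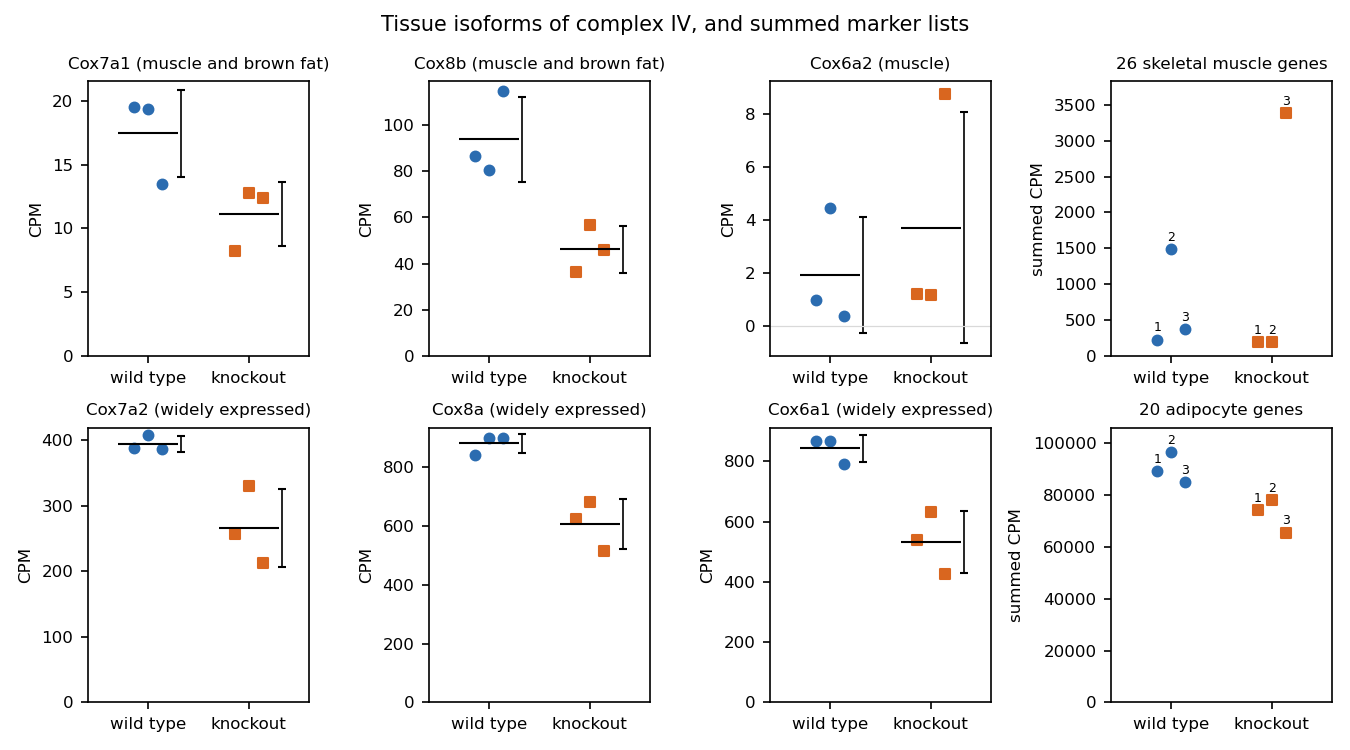
CPM of the 3 isoform pairs of complex IV in each library, with the mean (line) and SD (bar, n = 3), and the summed CPM of 26 skeletal muscle and 20 adipocyte genes with replicate numbers. Cox8b, Cox8a, Cox7a1, Cox7a2 and Cox6a1 are lower in all 3 knockout libraries, while Cox6a2 is highest in wild-type replicate 2 and knockout replicate 3, the libraries highest in muscle genes.

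Other tissue isoforms were scarce. Cox4i2, the form of lung, was at 16.02 to 29.2 CPM in wild type and 13.4 to 19.4 CPM in the knockout (log2 −0.43 ± 0.23, adjusted p = 0.260). Cox6b2, a testis form, was at 1.95 to 3.62 CPM in wild type and 1.66 to 1.85 CPM in the knockout, without overlap (log2 −0.62 ± 0.31, adjusted p = 0.227). The testis forms Cox8c and Cox7b2 were not tested: Cox8c had 1 count in wild-type replicate 3, and Cox7b2 had 0 counts in 108842582, which allows a level of up to 0.0276 CPM by counting error alone.

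ATP synthase had 17 genes, all tested and all with a log2 fold change below 0 in the counts as deposited. The median was −0.49, 1 gene passed as lower, and 9 did not overlap between genotypes. The small subunits within the membrane (Atp5j2, Atp5k, Atp5l, Atp5md and Atp5mpl), which bend the inner membrane and join the enzyme into dimers, had a median of −0.50. The peripheral stalk had a median of −0.44, the c-ring of −0.43 and the F1 head of −0.39.

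Atp5j2, the f subunit (ENSMUSG00000038690.15, chr5:145183698-145192062, minus strand, GRCm38), was at 364.9, 395.7 and 314.1 CPM in wild type and at 202.9, 273.9 and 180.9 CPM in the knockout. The ranges did not overlap (log2 −0.71 ± 0.18, adjusted p = 0.0470). Atp5k, the e subunit, was at 354.3, 313.8 and 218.7 CPM in wild type and at 128.4, 211.5 and 137.0 CPM in the knockout. Wild-type replicate 3 was only just above knockout replicate 2, and Atp5k missed the threshold despite the larger difference (log2 −0.89 ± 0.24, adjusted p = 0.0537). Atp5l, Atp5mpl and Atp5md had log2 fold changes of −0.50, −0.49 and −0.49 (adjusted p = 0.101, 0.127 and 0.167).

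Within the F1 head, Atp5a1 and Atp5b, the alpha and beta subunits that form the catalytic hexamer, had estimates near 0. Atp5b was at 1750, 2187 and 2193 CPM in wild type and at 1815, 1816 and 1781 CPM in the knockout, with wild-type replicate 1 below all knockout libraries (log2 −0.18 ± 0.15, adjusted p = 0.482). Atp5a1 was at 935.0 to 1072 CPM in wild type and 897.0 to 993.8 CPM in the knockout (log2 −0.09 ± 0.14, adjusted p = 0.722). The central stalk subunits Atp5c1 (gamma), Atp5d (delta) and Atp5e (epsilon) had log2 fold changes of −0.39, −0.57 and −0.85 (adjusted p = 0.0882, 0.0549 and 0.0717). Atp5d did not overlap, at 395.2 to 477.3 CPM in wild type and 246.2 to 328.1 CPM in the knockout, whereas Atp5e did, at 314.0 to 519.9 and 181.5 to 323.2 CPM. With the length and GC trend taken out, Atp5e was at −0.25, beside −0.18 for Atp5b and −0.15 for Atp5a1, and differences between subunits were not tested.

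The c-ring subunit is encoded by Atp5g1, Atp5g2 and Atp5g3, whose mature proteins are the same. Atp5g3 was the main source of c-ring transcripts, at 868.4, 940.1 and 959.1 CPM in wild type and 744.5, 869.5 and 655.0 CPM in the knockout, overlapping by knockout replicate 2 (log2 −0.29 ± 0.15, adjusted p = 0.249). It made up 86.1%, 86.8% and 87.7% of the counts of the 3 genes in wild type and 88.6%, 88.5% and 87.6% in the knockout. Atp5g1 and Atp5g2 did not overlap between genotypes, with log2 fold changes of −0.54 and −0.43 (adjusted p = 0.0616 and 0.0639). In the peripheral stalk, Atp5h and Atp5j (subunits d and F6) were at −0.56 and −0.45 (adjusted p = 0.0572 and 0.0656) without overlap, while Atp5o (OSCP) and Atp5f1 (subunit b) overlapped at −0.43 and −0.16 (adjusted p = 0.183 and 0.529).

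The size of the change went with transcript length, over all genes as well as over the members. Among the 28 members whose annotated transcript is shorter than 1000 bases, the median log2 fold change was −0.55 and 5 were called lower; among the 15 longer ones it was −0.28 and 0 were called. All tested genes under 1000 bases (936) had a median of −0.42, with 98 called lower and 8 higher, and those of 1000 bases or more (13036) had a median of 0.03, with 269 lower and 660 higher. Every knockout library lay below every wild-type library in 75% of the short members and 36.6% of all genes under 1000 bases. For the longer members and longer genes these shares were 46.7% and 13.8%. When the trend of each library on length and GC content was taken out, the members' median was −0.18, against −0.06 over all genes. Then 37 members were below 0, as were 8077 of all 14065 genes tested. The 1 member that passed was Atp5g1 (log2 −0.75, adjusted p = 0.0410), with 2.14% of all genes lower. In that fit the medians were −0.22 for complex III, −0.16 for complex IV and −0.18 for ATP synthase, and the calls over all genes were 51.6% higher, against 64.2% in the counts as deposited.

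The lengths themselves are uncertain for some members, because the annotation ranks several transcripts alike and the longest was taken. For Atp5g1 these range from 596 to 4715 bases, for Atp5md from 352 to 2733 and for Uqcrq from 405 to 1521. With the shortest in place of the longest, a setting chosen after seeing the data, the members' median was −0.23 with the trend taken out. Atp5j2 and Cox7b then passed as lower (1.93% of all genes did), and Atp5g1 did not (log2 −0.13, adjusted p = 0.506). Other versions of the trend, also chosen after seeing the data, gave members' medians of −0.31 (exon-union length and GC), −0.17 (length alone) and −0.54 (GC alone). The medians over all genes were −0.06, −0.07 and −0.05. Cox7a1 and Cox8a, at −0.63 and −0.54 in the counts as deposited, were at 0.002 and −0.007 with the trend of the longest transcript taken out, and Cox8b was at −0.43. Relative to wild type, the mean log2 level of the short members was −0.65, −0.30 and −0.69 in knockout replicates 1, 2 and 3, and that of all tested genes under 1000 bases was −0.35, −0.18 and −0.49, so both were least low in replicate 2. Genotype and the libraries' trend on length cannot be told apart in this design.

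**Figure D3:**
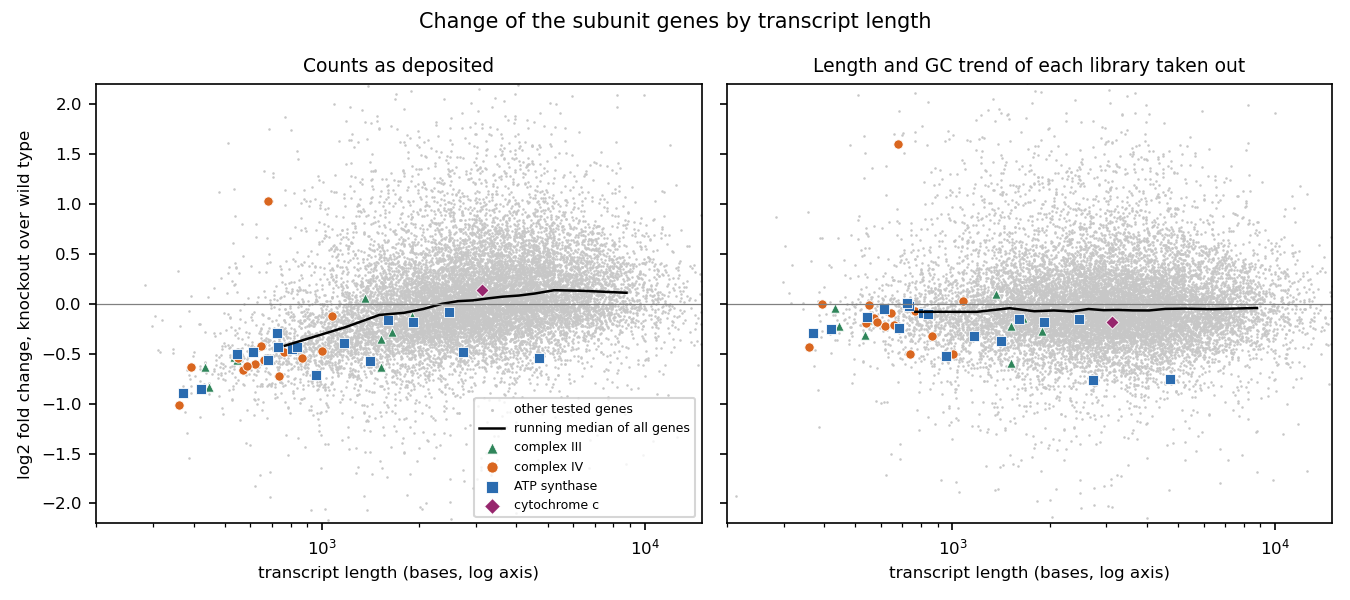
Log2 fold change (knockout over wild type) against annotated transcript length on a log axis, for all tested genes within the axis limits (grey) and the members (coloured by complex), in the counts as deposited (left) and with the length and GC trend of each library taken out (right). The running median of all genes falls below 0 for short transcripts on the left and is nearly flat on the right, where the members' median is −0.18.

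**Figure D4:**
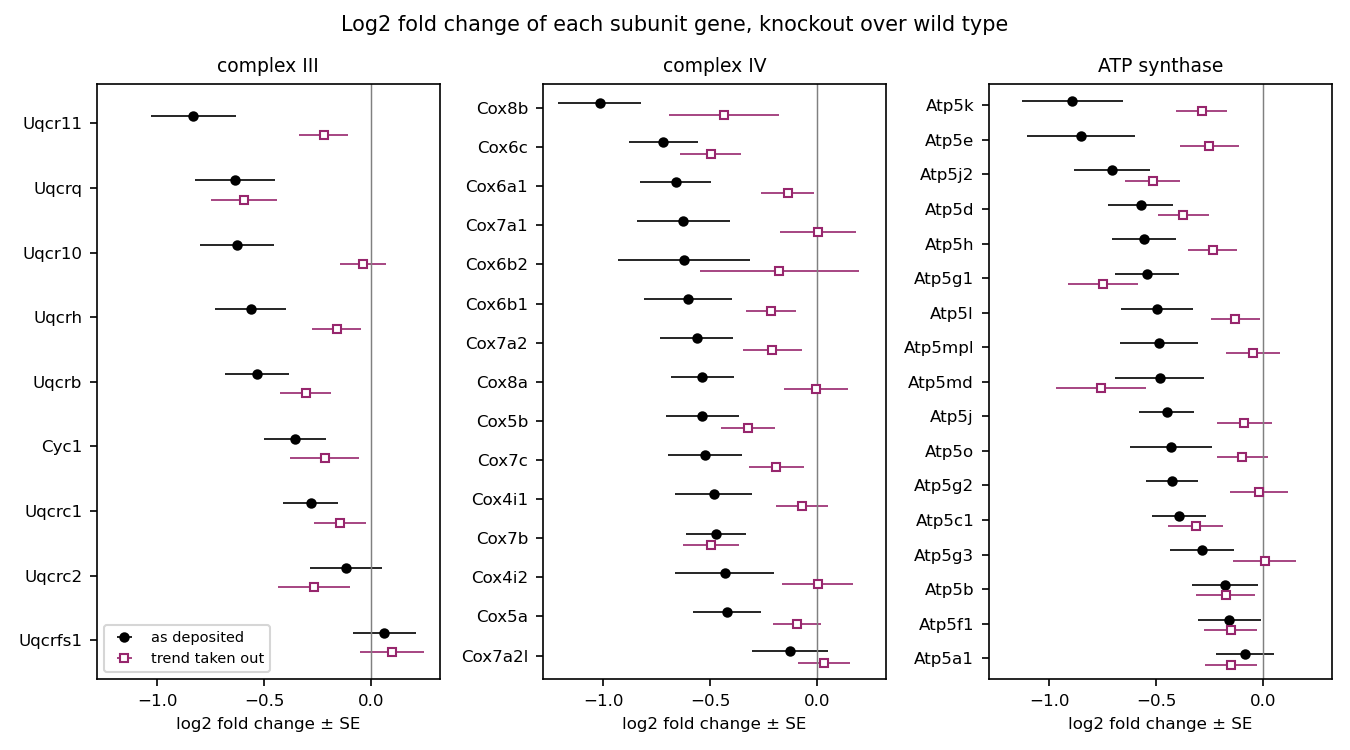
Log2 fold change ± SE of each tested gene of the 3 complexes except Cox6a2, in the counts as deposited (filled) and with the length and GC trend taken out (open). Most open symbols lie nearer 0 than the filled ones, as for Uqcr11 and Atp5k, while Uqcrc2, Uqcrfs1, Cox7b, Atp5g1, Atp5md and Atp5a1 are farther from 0 with the trend taken out.

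Cell type markers moved between the genotypes as well. The summed level of 20 adipocyte genes was 89087, 96356 and 84909 CPM in wild type and 73958, 77859 and 65431 CPM in the knockout. This is 80.4% of wild type, against 90.9% for all genes tested, with 3 adipocyte genes called lower and 1 higher. The log2 fold changes of the adipocyte genes ranged from −2.06 to 1.11, with 13 below 0 and 7 above. The members' mean log2 level relative to the adipocyte genes was 0.11, 0.03 and −0.15 in wild type and −0.21, 0.03 and −0.33 in the knockout, so knockout replicate 2 lay within the wild-type range. Of 22 macrophage genes, 11 were called higher and 0 lower, with a summed level of 1209 to 2383 CPM in wild type and 3373 to 3921 CPM in the knockout; Adgre1, which defines macrophages, was at 19.6 to 44.8 and 76.5 to 103.3 CPM. Of 10 fibroblast and progenitor genes, 3 were called higher (Col3a1, Dcn and Lum) and 0 lower. Their log2 fold changes ranged from −2.10 to 1.48, with 8 above 0 and 2 below. The summed level of the 10 was 3161 to 4417 CPM in wild type and 5000.0 to 6026 CPM in the knockout. Of 11 tested lymphocyte genes, 1 was called higher (Cd22) and 0 lower, with a summed level of 19.4 to 19.6 CPM in wild type and 26.1 to 47.5 CPM in the knockout. Of 9 tested brown fat genes 0 were called. At an unadjusted p under 0.05, 3 were higher and 0 lower, against 2094 higher and 1784 lower of all 14065 genes tested. In 4, among them Ucp1, every knockout library lay above every wild-type library, as in 17.8% of all genes tested. The summed level of the brown fat list was 228 to 393 CPM in wild type and 261 to 308 CPM in the knockout. Of 10 endothelial genes, 1 was called higher (Vwf) and 0 lower. With 1 library left out, 0 to 17 macrophage, 0 to 4 fibroblast and 0 to 3 lymphocyte genes were called higher and 0 to 5 adipocyte genes lower. Without wild-type replicate 3, 2 fibroblast genes were called lower. Over all genes, these fits called 0% to 10.1% higher and 0.00695% to 8.22% lower. With all 6 libraries, 4.76% of all genes tested were called higher and 2.65% lower. In bulk tissue, fewer cells of a type and less RNA per cell cannot be told apart, and the part of these cells in the members' levels was not tested. Without the 2 libraries highest in muscle transcripts, the members' median was −0.38 and 0 members passed, with 0.00711% of all genes lower.

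Other genes of respiration were read from lists. Among 35 tested subunits of complex I, which feeds electrons into the chain from NADH, 12 (34.3%) were called lower and 0 higher, with a median log2 fold change of −0.54. Of all genes tested, 2.65% were called lower, and of those with a transcript under 1000 bases 10.5%. The median transcript length of the complex I genes was 971 bases. With the length and GC trend taken out, 4 were called lower (2.14% of all genes were) and the median was −0.25. Without wild-type replicate 3 the count was 23 (8.22% of all genes were lower). Without any other single library it was 0, where 0.00695% to 1.82% of all genes were lower. The 4 genes of complex II, succinate dehydrogenase, had a median of −0.24 and 0 calls (2 were lower at an unadjusted p under 0.05); Sdhb had the smallest p (log2 −0.52, adjusted p = 0.0572). Differences between the complexes were not tested.

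Assembly factors help to build the complexes. The list used for them also held the subunit Ndufa4 and genes with another role, such as Slirp and Lrpprc, and the counts given are for the whole list. Of 37 tested, 3 were called lower (8.11%, against 2.65% of all genes) and 2 higher (5.41%, against 4.76%), and their median was −0.25. Without Ndufa4 these counts and the median were the same for the other 36. Fmc1, needed for assembly of the F1 head, was at 47.2, 44.4 and 55.3 CPM in wild type and 26.1, 31.0 and 20.3 CPM in the knockout (log2 −0.92 ± 0.17, adjusted p = 0.0234). Uqcc3, a factor of complex III assembly, and Slirp, which with Lrpprc stabilises mitochondrial messenger RNA, were both at −0.75 (adjusted p = 0.0458 and 0.0479). None of these 3 overlapped between genotypes. With the length and GC trend taken out, Slirp passed (log2 −0.996, adjusted p = 0.0317), while Fmc1 was at −0.41 (adjusted p = 0.249) and Uqcc3 at −0.45 (adjusted p = 0.0770). Coa5 and Cmc1, on the list for complex IV, passed as lower in that fit (log2 −0.59 and −0.64, adjusted p = 0.0386 and 0.0472). Of the 6 fits that each left out 1 library, Fmc1 passed in 2, Uqcc3 in 1 and Slirp in 1.

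Both factors called higher are known for work on metal centres. Cox11, which delivers copper to complex IV, was at 13.18, 13.98 and 16.02 CPM in wild type and 30.8, 36.9 and 30.6 CPM in the knockout (log2 1.19 ± 0.14, adjusted p = 0.0119). Hccs, the lyase that attaches heme to cytochrome c and cytochrome c1, was at 17.96, 16.53 and 17.32 CPM in wild type and 30.3, 25.3 and 24.8 CPM in the knockout (log2 0.63 ± 0.13, adjusted p = 0.0311). In both, all 3 knockout libraries lay above the wild-type range. With the length and GC trend taken out, Cox11 was at 1.27 (adjusted p = 0.0158) and Hccs at 0.37 (adjusted p = 0.110). With 1 library left out, Cox11 passed in 3 of 6 fits and Hccs in 1. Cycs and Cyc1, the substrates of Hccs, did not pass in either direction.

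Regulators of respiratory genes did not share a direction. Of 12 tested, 1 was called higher (8.33%, against 4.76% of all genes), 0 lower, and the median log2 fold change was 0.02. Gabpa, the DNA-binding subunit of the ETS factor GABP, was at 18.1, 19.1 and 28.7 CPM in wild type and 35.7, 38.0 and 46.9 CPM in the knockout (log2 0.87 ± 0.20, adjusted p = 0.0368). Its groups did not overlap. Gabpa was at 0.53 with the length and GC trend taken out (adjusted p = 0.0824) and passed in 1 of the 6 fits with a library left out. Nrf1 and Esrra were at −0.08 and 0.05 (adjusted p = 0.712 and 0.842), and the coactivator Ppargc1a at −0.29 (adjusted p = 0.679).

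Promoter windows of 250 bases were found for 34 of the 45 members (37 windows, RefSeq, GRCm38.p6) and searched on both strands for the motifs above and for the Sp1 box GGGCGG; matches of different motifs may overlap. The ETS motif was in 21.6% of member windows, against 6.91% of all windows and 12.6% of windows of tested genes. NRF1 was in 13.5%, against 3.74% and 7.46%, and the CCAAT box in 54.1%, against 33.9% and 34.9%. The Sp1 box was in 29.7%, against 32.7% and 55.5%, and ERR in 5.41%, against 4.08% and 2.96%. The E-box was in 5.41%, against 13% and 12.4%. TATAAA was in 8.11%, against 12.4% and 6.77%, and YY1 in 2.70%, against 2.21% and 3.525%. These shares are a description of the windows, without a test. Uqcr11, the called gene of complex III, is shown for its ETS match, in capitals between positions −66 and −60, within chr10:80406822-80407071 (minus strand).
Uqcr11: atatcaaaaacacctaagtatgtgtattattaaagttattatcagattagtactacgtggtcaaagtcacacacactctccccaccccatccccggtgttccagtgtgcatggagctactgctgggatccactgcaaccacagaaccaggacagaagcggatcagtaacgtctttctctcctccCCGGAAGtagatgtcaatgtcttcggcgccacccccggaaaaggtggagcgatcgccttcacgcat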

How the data were processed

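Bulk RNA sequencing libraries of inguinal white adipose tissue came from 3 wild-type and 3 Mpst knockout samples on a high-fat diet, grouped by their titles. Per the labels' protocols, RNA was extracted with TRIzol, libraries were made with the TruSeq RNA v2 kit and single-end reads of 75 bp were sequenced. The submitters' processing notes name HISAT2 2.1.0, HTSeq 0.13.5, DESeq2 1.26 and the build mm10. The sources used here do not give the annotation or the counter settings. The authors deposited raw counts per gene symbol, and summary lines of the counter (8.85% to 14.7% of reads without a feature) were left out.

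Genotypes were compared with edgeR 4.0.16 under R 4.3.3 (filterByExpr, TMM scaling, robust quasi-likelihood F test on all 6 libraries, Benjamini-Hochberg adjustment over 14065 genes, called under 0.05). CPM scale each count to the TMM-adjusted library size. Means and SD cover 3 libraries. Isoform ratios used counts plus 0.5 and an exact two-sided permutation test. Positions and transcript lengths came from GENCODE M21 (GRCm38) and promoter windows from RefSeq. Length and GC trends were fitted in each library with mgcv 1.9.3 over the 13972 tested genes with a length and entered as offsets. The model was tested on simulated counts. Alternatives were other scalings, DESeq2 1.42.0, limma-voom (limma 3.58.1), other filters, a replicate block, left-out libraries, no Rn45s and Malat1, thinning to the smallest library, and the length and GC trend; 4 versions of the trend (length alone, GC alone, exon-union length, shortest transcript) were chosen after seeing the data. Named with values were the isoform pairs, called members, the 2 members of each complex with the smallest p and the highest level per kilobase, those above 0, those not tested, and called genes of other lists (the smallest p where none was called); any other name was picked once its values were known. The members and lists were chosen with earlier results of these data known. No library was a copy of another (median ratio of differences to sampling noise 3.27 to 23.1 within genotypes).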

Additional observations from a re-analysis of the deposited data

How the results depend on the processing

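The median log2 fold change of the members was below 0 in every setting run, from −0.67 to −0.17, while the count called lower (5, with 1, 3 and 1 in complex III, complex IV and ATP synthase, and 3 lower and 2 higher assembly factors) moved. RLE size factors gave 3 members and 0 in ATP synthase. DESeq2 gave 23 (5, 9 and 9 by complex, 9 assembly factors lower) out of calls that were 53.9% higher. No low-count filter gave 2 in complex III, 2 in ATP synthase and 5 assembly factors lower, a fit without robust estimation 1 assembly factor lower, and thinning 2 in ATP synthase. Leaving out 1 library gave 0 to 24 members (0 to 5, 0 to 10 and 0 to 9 by complex) and 0 to 13 assembly factors lower and 0 to 4 higher; leaving out the 2 libraries highest in muscle transcripts gave 0 for each of these counts. Taking out the length and GC trend gave 1 member (0 in complex III and 0 in complex IV) and 1 assembly factor higher, length alone 2 (0, 0 and 2), GC alone 5 members, 2 of them (Cox6c and Cox8b) shared with the 5 above, and 1 assembly factor higher, exon-union length 3 (0, 1 and 2) and 1 assembly factor higher, and the shortest transcript 2 (0 and 1 in complexes III and IV) and 1 assembly factor higher. The replicate block called 28 members lower (5, 11 and 12), 14 assembly factors lower and 4 higher, with calls 51.8% higher over all genes. It called 9.16% of all genes lower and 9.86% higher. RLE size factors called 2.56% of all genes lower, no low-count filter 2.11%, no robust estimation 2.56% and thinning 2.68%. Length alone called 3.72% lower, GC alone 1.79%, exon-union length 2.29%, the shortest transcript 1.93% and the length and GC trend 2.14%. Of all genes, GC alone called 2.14% higher, exon-union length 2.55%, the shortest transcript 2.32% and the length and GC trend 2.28%. Leaving out 1 library called 0% to 10.1% higher. Same-numbered libraries correlated at 0.17, −0.10 and 0.30 in their deviations from the group means. With 3 libraries per group these deviations are not independent, so the correlations cannot decide whether same-numbered libraries share a batch.

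Some signs changed. Without the libraries high in muscle, Atp5f1 was at 0.0298 and Cox7a2l at 0.14. With the length and GC trend out, Atp5g3 was at 0.00646, Cox4i2 at 0.0012, Cox7a1 at 0.00227, Cox7a2l at 0.0295 and Cycs at −0.19; with length alone out, Atp5g3 was at 0.0348 and Cox7a2l at 0.0637; with GC alone out, Cycs was at −0.16 and Uqcrfs1 at −0.0149; with exon-union length, Cox4i2 was at 0.0221 and Cycs at −0.15; and with the shortest transcript, Atp5g2 was at 0.0589 and Cycs at −0.21. Leaving out 1 library gave −0.67 to 2.54 for Cox6a2, −0.26 to 0.0161 for Cox7a2l, −0.26 to 0.0616 for Uqcrc2 and −0.0471 to 0.16 for Uqcrfs1. The isoform ratio differences then ranged from −0.31 to 0.12 for Cox7a1 to Cox7a2, from −0.60 to −0.29 for Cox8b to Cox8a and from 0.55 to 2.56 for Cox6a2 to Cox6a1, and the cause was not tested. Cox6a2, Cox6b2 and Cox7a1 have the fewest counts among the tested members, so depth limits them most. Cox6a2 was also highest in the libraries highest in muscle transcripts, and the cause of its spread was not tested.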
